A study of Mus musculus with 6 samples.

Results

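The 41 genes described here were the 20 listed semaphorins, 9 plexins, 2 neuropilins and 10 intracellular effectors (collapsin response mediator proteins, MICAL monooxygenases and Ena/VASP proteins) of the mouse. They were found by gene symbol among 53700 listed genes, and each symbol named 1 gene. The cells were of SL4, a luciferase-carrying line of mouse colorectal cancer (CRC). RNA-seq compared 3 libraries of SL4 cells without SEMA6A overexpression (pLV-Control) with 3 libraries of SL4 cells that overexpressed SEMA6A from a lentivirus (pLV-SEMA6A). The question was which semaphorins and receptors these cells express, and which of them differed beside the introduced Sema6a. The sources used here describe 1 pLV-SEMA6A line and do not say whether it was a clone. The sequenced control cells are called both SL4 and pLV-Control there, so whether they carried a vector is not clear. If they carried none, lentiviral transduction and Sema6a cannot be told apart in any difference below. The sources also do not say whether the libraries came from separate cultures. P-values therefore measure the spread between these libraries, which may be technical.

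Semaphorins are secreted or membrane-bound guidance cues that share a sema domain, and plexins are their main receptors. The secreted class 3 semaphorins mostly bind neuropilins, which act with A-type plexins, whereas membrane-bound class 4 semaphorins bind B-type plexins and Sema6a binds Plxna2 and Plxna4. The plexin cytoplasmic domain acts on Ras-family and Rap GTPases, and collapsin response mediator proteins, MICALs and Ena/VASP proteins connect such guidance signals with microtubules and actin. In tumors, these cues are known for effects on migration, vessels and immune cells.

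Expression was deposited as TPM, transcripts as a share of a set total with gene length taken into account, which allows genes to be set side by side. The sum over all listed genes ranged from 977400 to 986444 TPM per library. The number of reads behind a value cannot be recovered from this unit, so no detection limit was available. Values per library are given in the order of replicates 1, 2 and 3. A value of 0 is given as listed, because 6 of the 7697 genes above 10 TPM in 5 libraries were listed below 0.5 TPM in the other one. None of the 41 genes was among those 6. Of 8 epithelial markers, none had a mean of 1 TPM or more, Epcam and Cdx2 were listed at 0 in each library, and Cdh1 did not exceed 0.03 TPM. Of 5 fibroblast markers 4 did, and their summed level was 123 to 139 TPM in pLV-Control and 181 to 188 TPM in pLV-SEMA6A, mostly from Col3a1. The 4 tested fibroblast markers did not move in 1 direction, since Col1a1 and Col3a1 were called higher and Pdgfra (1.76 against 0.78 TPM on average) and Pdgfrb (10.5 against 6.66 TPM) lower. The expression of these cells thus did not show the epithelial markers of the labelled tumor type. In addition, 1 of 5 immune markers, 1 of 5 neuron markers and 0 of 4 endothelial markers had a mean of 1 TPM or more. In bulk RNA, fewer cells with a transcript and less of it per cell cannot be told apart.

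SL4 pLV-Control cells expressed a limited set of semaphorins. At a mean of 1 TPM or more, 11 of the 20 semaphorins, 6 of the 9 plexins, both neuropilins and 8 of the 10 effectors were listed. Sema3a, a secreted ligand that collapses growth cones, led the family at 83.5 ± 1.64 TPM (SD, n = 3). Sema5a, a transmembrane semaphorin with thrombospondin repeats, followed at 46.3 ± 1.61 TPM, and Sema4b at 13.8 ± 0.733 TPM. Sema3a alone made up 43.8% ± 0.324 of the semaphorin TPM and Sema5a 24.3% ± 0.929. The next genes were Sema4c at 9.89 ± 0.607 TPM, Sema3e at 7.84 ± 0.527 TPM and Sema3b at 7.45 ± 0.655 TPM, and the libraries of Sema3e and Sema3b overlapped. Sema7a, Sema6c, Sema3c, Sema4g and Sema4a had means from 5.45 down to 2.80 TPM, where Sema7a overlapped with Sema6c, and Sema3c, Sema4g and Sema4a overlapped from one to the next. The remaining 9 had means below 1 TPM, and Sema5b and Sema6a were listed at 0 in each pLV-Control library.

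**Figure D1:**
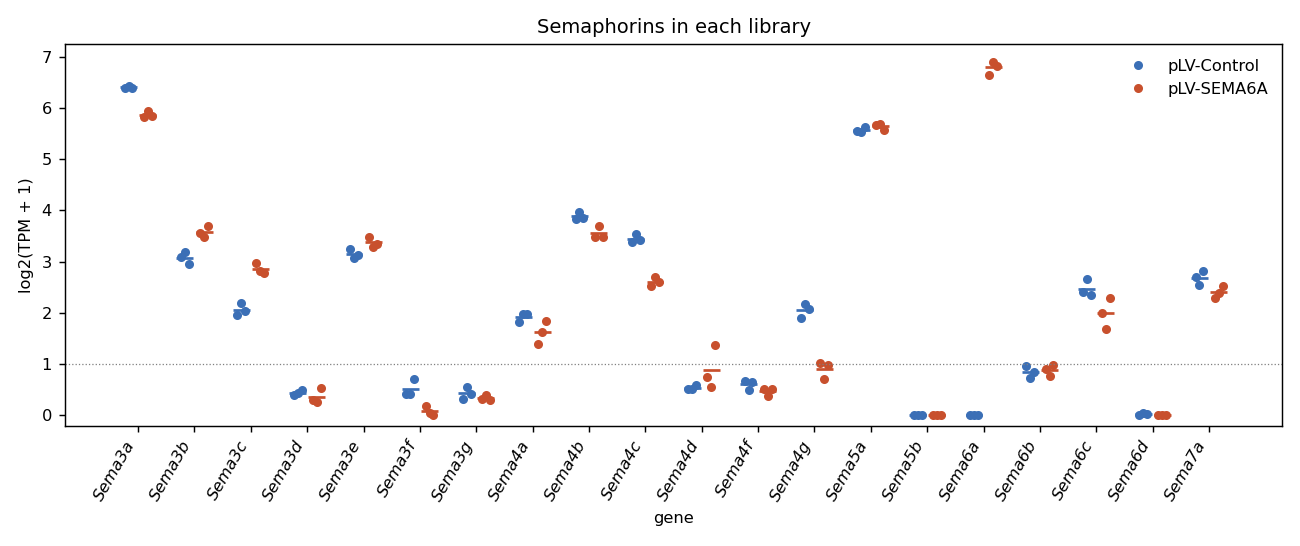
Level of the 20 semaphorins, as log2(TPM + 1), in each of the 3 pLV-Control (blue) and 3 pLV-SEMA6A (red) libraries, where points are libraries, bars are group means and the dotted line is 1 TPM. Sema6a is at 0 without overexpression and at 98.7 to 118 TPM with it, while Sema3a and Sema5a lead the other members in both groups.

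Sema6a, the introduced gene, was listed at 0, 0 and 0 TPM without and 98.7, 118 and 112 TPM with SEMA6A overexpression. The libraries therefore followed their labels, and no fold is given against a group listed at 0. In pLV-SEMA6A cells Sema6a was the highest semaphorin (109.8 ± 10.1 TPM) and made up 38.1, 41.9 and 41.2% of the semaphorin TPM. The introduced sequence is not given in the sources used here, so whether the gene length behind its TPM applies is unknown. Comparisons of Sema6a TPM with that of other genes carry this limit. Semaphorin TPM summed to 191 ± 3.54 in pLV-Control and 271 ± 11.9 in pLV-SEMA6A. Without Sema6a the sum was 191 ± 3.54 against 162 ± 2.21 TPM, lower in 3 of 3 pLV-SEMA6A libraries (exact permutation test, two-sided, p = 0.1). This is the smallest p that 3 against 3 libraries allow. The log2 ratio of this sum was -0.24, and -0.14 with the libraries scaled to the same median TPM. The largest decrease in TPM was that of Sema3a.

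**Figure D2:**
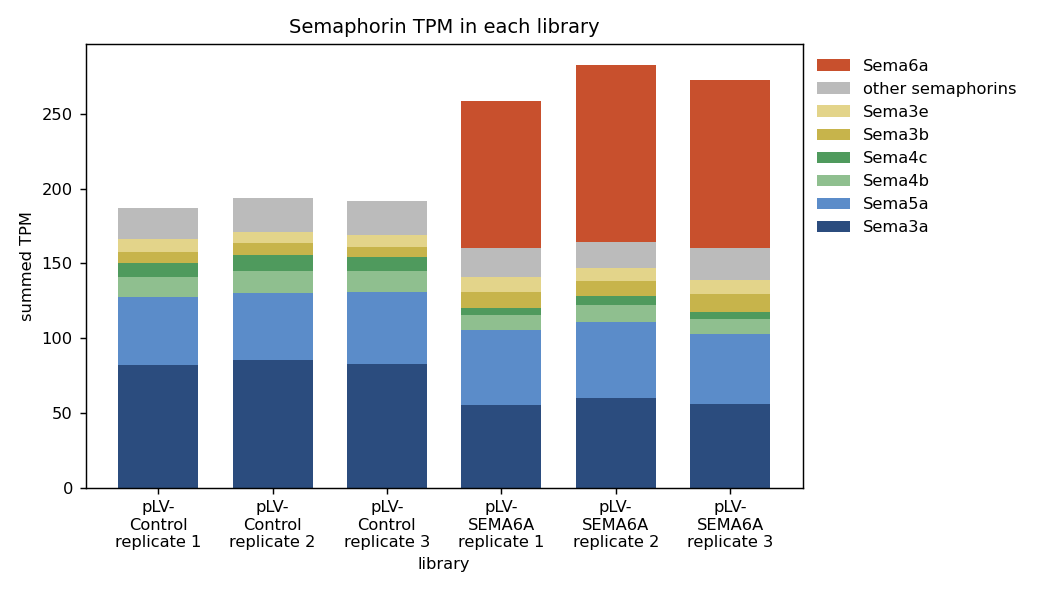
Summed TPM of the semaphorins in each library, stacked by gene from 0, with 3 pLV-Control libraries on the left and 3 pLV-SEMA6A libraries on the right. Sema6a accounts for 38.1 to 41.9% of the bar in the pLV-SEMA6A libraries, and the part below it is 162 TPM on average against 191 TPM in pLV-Control.

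Beside Sema6a, 26 of the other 40 genes had a mean of at least 1 TPM over the 6 libraries and were tested. The comparison used limma on log2(TPM + 1) over all 12510 such genes, a scale that understates the change of low genes. A call needed a Benjamini-Hochberg adjusted p below 0.05 together with a log2 fold change beyond 0.5 in either direction. Of the 26 tested, 6 were called (23.1%), against 15.9% of all genes tested. Sema3c, Nrp1 and Enah were higher in pLV-SEMA6A cells (11.5% of the tested members, against 5.12% of all genes), and Sema3a, Sema4c and Sema4g were lower (11.5%, against 10.8%). With no minimum fold change, 13 of 26 passed the adjusted p (50%, against 47.6% of all genes), and the libraries of the groups did not overlap for 17 of 26 (65.4%, against 58.5%). The median log2 fold change was -0.08 over the 26 genes and -0.06 over all genes. By family, 4 of 11 tested semaphorins, 0 of 5 plexins, 1 of 2 neuropilins and 1 of 8 effectors were called. Among the plexins only Plxnb2 had an unadjusted p under 0.05. It also passed the adjusted p (limma adjusted p = 0.0016) but not the minimum fold change. The 14 genes below 1 TPM were not tested.

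**Figure D3:**
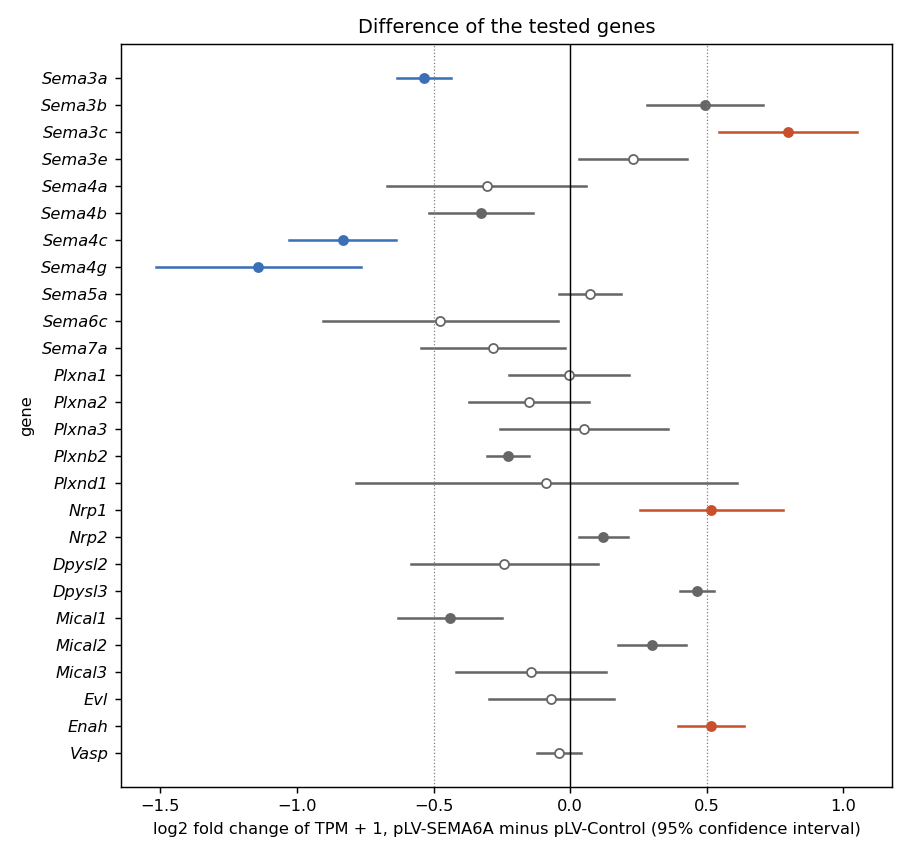
Log2 fold change of TPM + 1, pLV-SEMA6A minus pLV-Control, with its 95% confidence interval, for the 26 tested genes other than Sema6a. Red and blue mark genes called higher and lower, filled points an adjusted p under 0.05, and dotted lines the 0.5 minimum. The called genes lie between -1.14 (Sema4g) and 0.80 (Sema3c), and Sema3a, Nrp1, Enah and the uncalled Sema3b, Dpysl3 and Sema6c lie within 0.04 of the minimum.

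The sequence before annotated RefSeq starts was examined for the members, of which Sema3a and Sema4c fell while Nrp1 rose. RefSeq starts on GRCm38.p6 were matched for 34 of the 41 genes, with 48 starts, and the 250 bases before each start were searched on both strands for the letters of a STAT site (GAS, TTCNNNGAA), an interferon-stimulated element (ISRE, GAAANNGAA), the GC box (GGGCGG), the CCAAT box (CCAAT) and the TATA box (TATAAA), with overlapping matches kept. The GAS letters were in 0 of 48 member windows and in 7.02% of 32851 windows of all genes. The ISRE letters were in 4 of 48 (8.33%) and 7.13% of all. They were in windows of Plxnd1, which was tested and not called, and of Sema3d, Sema6b and Plxnc1, which were not tested. The GC box was in 33 of 48 (68.8%) and 32.7% of all, the CCAAT box in 9 of 48 (18.8%) and 33.9%, and the TATA box in 1 of 48 (2.08%) and 12.4%. Median GC content was 63.2% in member windows and 52.4% in all. The windows of 3 of the 6 called genes are shown 5′ to 3′ on the coding strand, with GC boxes in capitals. That is the plus strand for Sema3a and Nrp1 and the minus strand for Sema4c, of which the first of 2 starts is shown. Of the called genes, the windows not shown held 3 GC boxes for Sema3c, 3 for Sema4g, 6 for Enah and 2 for the second Sema4c start.
Sema3a chr5:13396534-13396783: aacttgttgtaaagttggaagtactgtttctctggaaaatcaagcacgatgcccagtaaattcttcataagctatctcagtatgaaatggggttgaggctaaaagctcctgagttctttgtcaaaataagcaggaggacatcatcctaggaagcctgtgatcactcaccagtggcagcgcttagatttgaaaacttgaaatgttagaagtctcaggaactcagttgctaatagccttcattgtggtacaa
Sema4c chr1:36558382-36558631: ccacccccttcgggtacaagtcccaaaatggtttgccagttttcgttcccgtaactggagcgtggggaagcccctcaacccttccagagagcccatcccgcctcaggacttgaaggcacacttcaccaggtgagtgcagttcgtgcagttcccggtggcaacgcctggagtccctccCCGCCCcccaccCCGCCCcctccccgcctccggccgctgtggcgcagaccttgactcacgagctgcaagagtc
Nrp1 chr8:128358823-128359072: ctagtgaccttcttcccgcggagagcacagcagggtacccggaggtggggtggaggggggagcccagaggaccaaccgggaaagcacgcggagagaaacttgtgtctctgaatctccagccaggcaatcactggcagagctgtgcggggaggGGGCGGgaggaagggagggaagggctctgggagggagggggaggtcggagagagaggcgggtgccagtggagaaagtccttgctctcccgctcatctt
The Sema3a window had a GC content of 40.8% and none of the searched letters, and this RefSeq start lies 271370 bases after the first annotated start of the gene. The Sema4c window, 64.4% GC, held 2 GC boxes and lies within exons of D430040D24Rik on the opposite strand, a gene listed at 0.21 to 0.39 TPM in the 6 libraries, with which Sema4c shares part of its 31-base stretches (6.45% occur in other genes). The Nrp1 window, 64.4% GC, held 1 GC box, and its start lies 469 bases after the first annotated start. For 37 of the 48 starts, the bases just after the start occurred in an annotated transcript of the gene. Some windows lay in annotated exons of the same gene, with all 250 bases for Sema3c and Plxna2. Which start SL4 cells use was not measured, and a match of letters is a description of the sequence only.

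Among the secreted class 3 semaphorins, Sema3a fell and Sema3c rose. Sema3a was listed at 82.1, 85.3 and 83.0 TPM without and 55.4, 60.2 and 56.3 TPM with SEMA6A overexpression. All 3 pLV-SEMA6A libraries were below all 3 pLV-Control libraries, with a log2 fold change of -0.53 (SE 0.041, limma adjusted p = 0.00012). The call lay close to the minimum and ended under median centring of the libraries, at -0.44. Sema3c, a neuropilin ligand known from outflow tract development and from invasive tumors, was listed at 2.87, 3.56 and 3.09 TPM without and 6.88, 6.01 and 5.86 TPM with SEMA6A overexpression. It was higher in each pLV-SEMA6A library, with a log2 fold change of 0.80 (SE 0.11, limma adjusted p = 0.0012). The TPM ratio of Sema3a to Sema3c was 28.6, 24.0 and 26.9 in pLV-Control and 8.05, 10.02 and 9.61 in pLV-SEMA6A. This separation follows from the opposite moves of both genes and is no further test. Sema3a remained the highest class 3 gene, but its share of class 3 TPM was 81.0% ± 0.377 in pLV-Control and 67.8% ± 2.17 in pLV-SEMA6A.

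Sema3b and Sema3e lay on the higher side without being called. Sema3b, a gene known as a tumor suppressor in lung cancer, was listed at 7.47, 8.1 and 6.79 TPM without and 10.7, 10.2 and 11.9 TPM with SEMA6A overexpression, with a log2 fold change of 0.49 (SE 0.088, limma adjusted p = 0.0043), just under the minimum fold change. It passed in 6 of 13 alternatives. Sema3e, which binds Plxnd1 without a neuropilin, was listed at 8.42, 7.39 and 7.71 TPM without and 10.2, 8.77 and 9.14 TPM with SEMA6A overexpression, and its log2 fold change of 0.23 (95% CI 0.03 to 0.43) missed the adjusted threshold (limma adjusted p = 0.058). The 4 tested class 3 genes were thus 1 called lower, 1 called higher and 2 not called. Of all genes tested 15.9% were called. None of these 4 class 3 genes had overlapping groups, as was so for 58.5% of all genes tested. Sema3d, Sema3f and Sema3g were below 1 TPM. Sema3f, another gene of the lung cancer deletion region, was listed at 0.33, 0.33 and 0.63 TPM without and 0.14, 0.03 and 0 TPM with SEMA6A overexpression, without overlap but at levels that were not tested. Sema3d, Sema3a, Sema3e and Sema3c lie in this order on mouse chromosome 5 (GENCODE M21, GRCm38), so the called pair of opposite direction shares a chromosome.

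Of the 4 tested class 4 semaphorins, membrane ligands of B-type plexins, 2 were called lower and 0 higher. Over all genes tested the shares were 10.8% and 5.12%. Sema4c, a ligand of Plxnb2, was listed at 9.36, 10.6 and 9.75 TPM without and 4.73, 5.51 and 5.1 TPM with SEMA6A overexpression, with a log2 fold change of -0.83 (SE 0.082, limma adjusted p = 0.00036). Sema4g, which also binds Plxnb2 and is known from cerebellar development, was listed at 2.72, 3.51 and 3.19 TPM without and 1.03, 0.63 and 0.98 TPM with SEMA6A overexpression. It had the largest log2 fold change of the 26 tested genes, with a log2 fold change of -1.14 (SE 0.16, limma adjusted p = 0.0014), and was at or near 1 TPM in pLV-SEMA6A cells. With a pseudocount of 0.1 in place of 1 the value was -1.74. For both genes the groups did not overlap.

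Sema4b, which follows Sema5a among the pLV-Control semaphorins, was listed at 13.3, 14.6 and 13.4 TPM without and 10.2, 11.97 and 10.2 TPM with SEMA6A overexpression. Its groups did not overlap and its adjusted p passed, but its log2 fold change of -0.33 (SE 0.08, limma adjusted p = 0.016) was smaller than the minimum. Sema4a, known from T cell activation and the retina, was listed at 2.54, 2.91 and 2.94 TPM without and 1.61, 2.09 and 2.58 TPM with SEMA6A overexpression, the groups overlapped, and its log2 fold change of -0.31 had a 95% CI of -0.67 to 0.06. Summed class 4 TPM was 30.6 ± 1.76 in pLV-Control and 20.2 ± 1.27 in pLV-SEMA6A (exact permutation test, two-sided, p = 0.1). Sema4d and Sema4f were below 1 TPM in the mean, and Sema4d, the main Plxnb1 ligand, was listed at 0.67, 0.46 and 1.57 TPM in pLV-SEMA6A, where 1 library alone exceeded 1 TPM.

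The other classes had no called gene apart from Sema6a. Sema5a was listed at 45.5, 45.2 and 48.1 TPM without and 49.8, 50.2 and 46.2 TPM with SEMA6A overexpression, the groups overlapped, and its log2 fold change of 0.07 had a 95% CI of -0.04 to 0.19, so a change beyond the 0.5 minimum lay outside the interval. The share of Sema5a in the TPM of the semaphorins other than Sema6a was 24.3% ± 0.929 in pLV-Control and 30.2% ± 1.24 in pLV-SEMA6A. Sema6c, the closest expressed relative of Sema6a here, was listed at 4.28, 5.35 and 4.06 TPM without and 3.0, 2.22 and 3.89 TPM with SEMA6A overexpression. Its groups did not overlap, but its log2 fold change of -0.48 (95% CI -0.91 to -0.05) did not pass (limma adjusted p = 0.068). Sema7a, a GPI-anchored semaphorin that binds Plxnc1 and integrin beta1, was listed at 5.53, 4.81 and 6.0 TPM without and 3.88, 4.26 and 4.75 TPM with SEMA6A overexpression, with a log2 fold change of -0.28 (95% CI -0.55 to -0.02) that did not pass either (limma adjusted p = 0.075). Sema6b was at 0.94, 0.66 and 0.79 TPM without and 0.87, 0.69 and 0.97 TPM with SEMA6A overexpression, Sema6d did not exceed 0.03 TPM, and Sema5b was listed at 0 in all 6 libraries.

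Plxnb2, the receptor of Sema4c and Sema4g, made up most of the plexin TPM (72.0% ± 0.782 in pLV-Control). It was listed at 129, 126 and 124 TPM without and 109, 109 and 104 TPM with SEMA6A overexpression. The groups did not overlap and the adjusted p passed, but the difference was small, with a log2 fold change of -0.23 (SE 0.032, limma adjusted p = 0.0016). The other B-type plexins were low. Plxnb1 was listed at 1.72, 1.1 and 0.81 TPM without and 0.88, 0.24 and 0.32 TPM with SEMA6A overexpression, with overlap of 1 library, and Plxnb3 did not exceed 0.09 TPM.

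The 2 plexins that bind Sema6a were not among the abundant ones. Plxna4 was listed at 0.01 TPM in 1 pLV-Control library and at 0 in the other 5. Plxna2 was listed at 3.51, 3.41 and 3.73 TPM without and 3.16, 3.09 and 3.04 TPM with SEMA6A overexpression, lower in each pLV-SEMA6A library but by a log2 fold change of -0.15 whose 95% CI of -0.37 to 0.07 included 0 (limma adjusted p = 0.22). The TPM of Sema6a was 31.2, 38.3 and 36.9 times that of Plxna2 in the 3 pLV-SEMA6A libraries.

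The other A-type plexins, which pair with neuropilins, did not pass the test. Plxna1 was listed at 27.6, 26.2 and 29.7 TPM without and 30.1, 29.1 and 24.2 TPM with SEMA6A overexpression, and Plxna3 at 10.3, 8.23 and 10.2 TPM without and 10.03, 11.4 and 8.47 TPM with SEMA6A overexpression. Both had overlapping groups, with log2 fold changes of -0.01 (95% CI -0.22 to 0.21) for Plxna1 and 0.05 (95% CI -0.26 to 0.36) for Plxna3, intervals that exclude the 0.5 minimum. A-type plexin TPM summed to 40.98 ± 2.91 in pLV-Control and 40.9 ± 4.47 in pLV-SEMA6A (exact permutation test, two-sided, p = 0.9). Plxnd1, the Sema3e receptor, was listed at 6.51, 7.63 and 4.25 TPM without and 4.38, 8.79 and 4.38 TPM with SEMA6A overexpression. Relative to its mean it varied most of the tested plexins within both groups, and its interval of -0.78 to 0.61 does not exclude a change past the minimum in either direction. Plxnc1, the Sema7a receptor, was at 1.79 TPM in 1 pLV-Control library and between 0.06 and 0.11 TPM in the other 5.

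**Figure D4:**
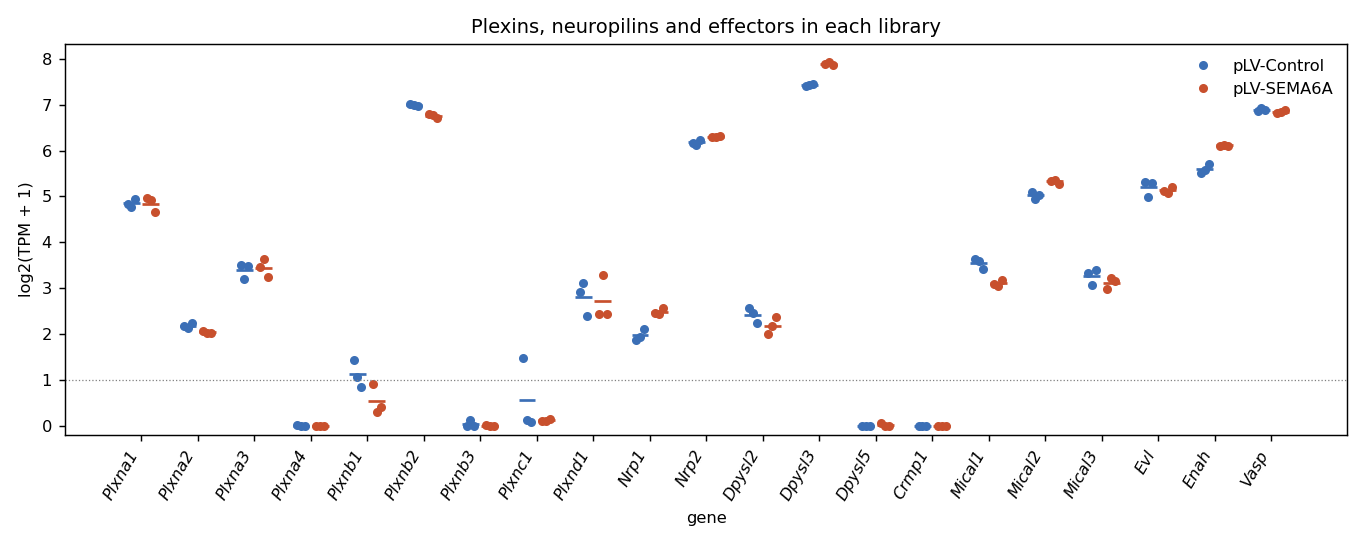
Level of the 9 plexins, 2 neuropilins and 10 effectors, as log2(TPM + 1), in each pLV-Control (blue) and pLV-SEMA6A (red) library, where bars are group means and the dotted line is 1 TPM. Dpysl3, Plxnb2 and Vasp are the highest genes in both groups, and the groups of Nrp1, Dpysl3 and Enah are apart while those of Plxna1, Plxna3 and Vasp overlap.

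Of the neuropilins, the co-receptors of class 3 semaphorins and of VEGF, Nrp2 was the predominant one and Nrp1 rose. Nrp1, through which Sema3a signals, was listed at 2.63, 2.82 and 3.34 TPM without and 4.5, 4.38 and 4.95 TPM with SEMA6A overexpression. It was higher in each pLV-SEMA6A library, with a log2 fold change of 0.52 (SE 0.11, limma adjusted p = 0.0086). Nrp2, the preferred co-receptor of Sema3f, was listed at 70.9, 68.8 and 74.5 TPM without and 77.5, 77.2 and 78.5 TPM with SEMA6A overexpression, without overlap and with a log2 fold change of 0.12 (SE 0.037, limma adjusted p = 0.034) that was far below the minimum. The TPM ratio of Nrp2 to Nrp1 was 26.9, 24.4 and 22.3 in pLV-Control and 17.2, 17.6 and 15.9 in pLV-SEMA6A (exact permutation test, two-sided, p = 0.1). In the same libraries the ligand Sema3a moved the other way, and the ratio of Sema3a to Nrp1 was 28.8 ± 3.43 in pLV-Control and 12.5 ± 1.19 in pLV-SEMA6A. The Nrp1 call lay close to the minimum, and the log2 fold change was 0.46 without pLV-Control replicate 1, just under 0.50 without pLV-Control replicate 2 and 0.47 without pLV-SEMA6A replicate 3, each of which ended it.

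Among the collapsin response mediator proteins, which bind tubulin and relay Sema3a signals, Dpysl3 was the main gene and Dpysl2, the founding member, was low. Dpysl3 was listed at 169, 172 and 174 TPM without and 237, 242 and 232 TPM with SEMA6A overexpression, the highest level of the 41 genes in both groups. All pLV-SEMA6A libraries were above all pLV-Control libraries, with a log2 fold change of 0.46 (SE 0.025, limma adjusted p = 3.69e-05), slightly under the minimum fold change. Dpysl2 was listed at 4.94, 4.52 and 3.71 TPM without and 2.99, 3.49 and 4.21 TPM with SEMA6A overexpression, the groups overlapped, and its log2 fold change of -0.24 had a 95% CI of -0.58 to 0.10. Dpysl5 and Crmp1, which are mostly neuronal, were at or near 0 in every library.

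The MICALs are flavin enzymes that oxidize actin and are recruited by plexins, and they did not move together. Mical1 was listed at 11.3, 11.0 and 9.71 TPM without and 7.46, 7.28 and 8.07 TPM with SEMA6A overexpression and Mical2 at 33.4, 29.9 and 31.5 TPM without and 39.6, 39.9 and 37.8 TPM with SEMA6A overexpression. Neither pair of groups overlapped, but the log2 fold changes of -0.44 for Mical1 (SE 0.079, limma adjusted p = 0.0045) and 0.30 for Mical2 (SE 0.051, limma adjusted p = 0.0036) were of opposite sign and under the minimum. Mical3 was listed at 9.0, 7.35 and 9.52 TPM without and 6.86, 8.37 and 7.86 TPM with SEMA6A overexpression with overlap (95% CI -0.42 to 0.13). Mical1 overlaps Smpd2 on the opposite strand, and 12.7% of its 31-base stretches occur in other genes. Smpd2 was at 14.6 to 16.2 TPM in pLV-Control and 10.1 to 12.3 TPM in pLV-SEMA6A. Since the strand setting is not given in the sources used here, reads from the overlapping stretch of this pair cannot be told apart.

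The Ena/VASP proteins, which extend actin filaments at the leading edge, had 1 called member. Enah, also known as Mena, was listed at 44.8, 46.6 and 50.8 TPM without and 67.7, 68.9 and 67.6 TPM with SEMA6A overexpression. It rose in each pLV-SEMA6A library, with a log2 fold change of 0.51 (SE 0.05, limma adjusted p = 0.00035), and of the alternatives run at the 0.5 minimum only leaving out pLV-Control replicate 1 ended the call (0.48). Vasp was listed at 114, 121 and 117 TPM without and 112, 113 and 117 TPM with SEMA6A overexpression and Evl at 38.9, 30.7 and 38.3 TPM without and 33.6, 32.8 and 35.8 TPM with SEMA6A overexpression. Both overlapped, with log2 fold changes of -0.04 (95% CI -0.12 to 0.04) for Vasp and -0.07 (95% CI -0.30 to 0.16) for Evl. Enah made up 23.6% ± 1.05 of Ena/VASP TPM in pLV-Control and 31.5% ± 0.705 in pLV-SEMA6A (exact permutation test, two-sided, p = 0.1).

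Of the calls near the minimum, that of Sema3a ended under median centring but not under quantile normalization (-0.55). The calls of Nrp1 and Enah depended on single libraries. With each library centred on its median log2 value, the median log2 fold change of all genes was 0.03 in place of -0.06, and 7 of the 26 genes were called, 5 higher and 2 lower, in place of 3 and 3. Sema3b and Dpysl3 were then called (0.59 and 0.56), and Sema3a was not, at -0.44. Over all genes this centring gave 1002 higher and 961 lower calls in place of 640 and 1347. Without pLV-Control replicate 1, 4 genes were called, since Nrp1 and Enah fell under the minimum. Sema3c, Sema4c and Sema4g were called under each alternative scaling and without any single library. Of the fibroblast markers, 2 were called higher and 2 lower. Col3a1, the highest of them, was listed at 125, 122 and 109.5 TPM without and 168, 172 and 176 TPM with SEMA6A overexpression and Pdgfrb, the next, at 10.6, 10.2 and 10.7 TPM without and 6.92, 6.54 and 6.53 TPM with SEMA6A overexpression. The part of these markers in the differences above was not tested.

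Downstream genes of plexin signaling were taken from a list of 63 co-receptors, plexin-bound regulators, small GTPases, kinases and cytoskeletal effectors. Of 51 tested, 5 were called, 2 higher and 3 lower (9.80%, against the 15.9% of all genes), and 26 passed the adjusted p with no minimum (11 higher and 15 lower), which is 51.0% against the 47.6% of all genes. The median log2 fold change was -0.01. Of 13 tested small GTPases 3 were called (23.1%), 1 lower and 2 higher. Rras, encoding R-Ras, was listed at 104, 109 and 97.5 TPM without and 56.5, 62.6 and 49.2 TPM with SEMA6A overexpression, with a log2 fold change of -0.88 (SE 0.09, limma adjusted p = 0.00042). Rap1a was listed at 70.4, 65.9 and 68.4 TPM without and 95.9, 102 and 97.4 TPM with SEMA6A overexpression and Rap1b at 63.4, 65.2 and 63.1 TPM without and 92.5, 94.6 and 88.6 TPM with SEMA6A overexpression. Both rose, by log2 fold changes of 0.52 for Rap1a (limma adjusted p = 0.00011) and 0.52 for Rap1b (limma adjusted p = 7.87e-05). Both calls lay close to the minimum. Quantile normalization left the 2 genes at 0.49 each and ended both calls, as did leaving out pLV-SEMA6A replicate 2 (0.497 for Rap1a and 0.496 for Rap1b), and leaving out pLV-Control replicate 2 ended that of Rap1a (0.498).

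Sh3bp1, a GAP for Rac that binds plexins, was listed at 36.9, 31.6 and 34.3 TPM without and 22.4, 22.3 and 16.3 TPM with SEMA6A overexpression, with a log2 fold change of -0.73 (SE 0.13, limma adjusted p = 0.0041). Micall2, a MICAL-like Rab effector, was also called lower (6.18 against 3.53 TPM on average), a call that quantile normalization also ended (-0.48), so that the list then held 2. Its mean lay under the 5 TPM floor of the naming rule, and it is named because it completes the 5 calls. Of the other receptors on the list, 4 of 13 were tested and none was called. The RTK Erbb2, a partner of B-type plexins, was listed at 7.13, 6.72 and 5.98 TPM without and 4.71, 4.56 and 4.01 TPM with SEMA6A overexpression, with a log2 fold change of -0.49 (SE 0.097, limma adjusted p = 0.0068), and Met at 7.78, 8.71 and 8.05 TPM without and 8.53, 8.56 and 7.95 TPM with SEMA6A overexpression with overlap. Erbb2 and Met lie outside the naming rule and were named after their values were seen.

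**Figure D5:**
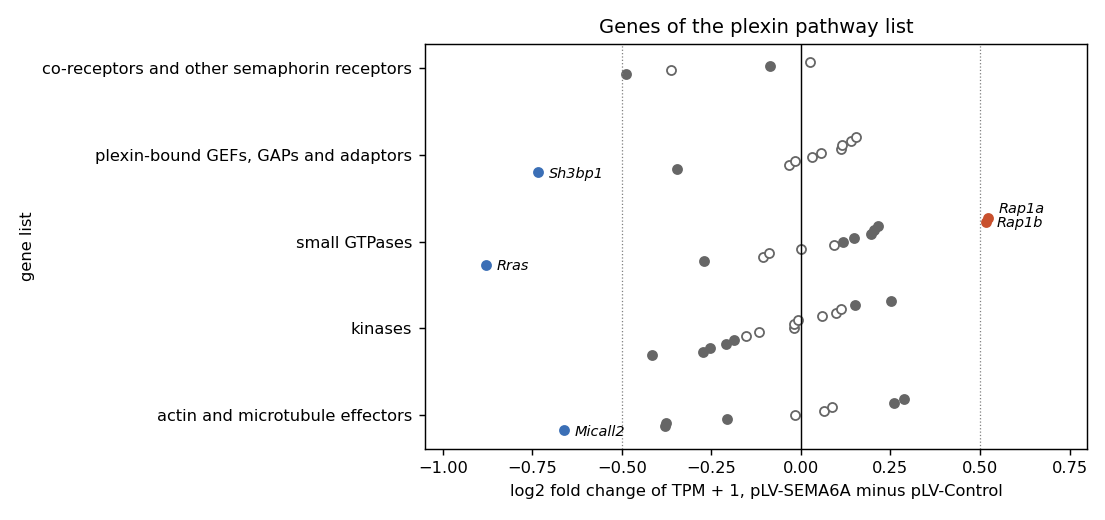
Log2 fold change of TPM + 1, pLV-SEMA6A minus pLV-Control, for the 51 tested genes of the pathway list, in 5 rows by role. Red and blue mark genes called higher and lower, filled points an adjusted p under 0.05, and dotted lines the 0.5 minimum. The 5 called genes are named, with Rras farthest from 0 at -0.88.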

How the data were processed

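Poly-A mRNA of 3 pLV-Control and 3 pLV-SEMA6A samples of SL4 cells was fragmented, reverse transcribed with random primers and sequenced on an Illumina platform by the authors. The authors deposited TPM per gene and library with 2 decimals, together with the mean TPM of each group, which was not used. HISAT, Bowtie2, RSEM and the build mm39 are named in the submitters' processing notes, without their roles. Depth and strand setting are not given in the sources used here. Samples were grouped by their titles.

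The genes and lists were chosen with earlier results of these data known. All members are described, and of the pathway list the called genes whose mean reached 5 TPM, at most 12. Genes whose mean over the 6 libraries reached 1 TPM entered a limma fit (version 3.58.1, R 4.3.3) of log2(TPM + 1) on the group, with a variance trend, and p-values were adjusted over all genes tested by the Benjamini-Hochberg method. The design also allowed for counts, but none were in the file, so no count test was made. Summed TPM was compared by exact permutation tests, two-sided. The fit was tested on simulated data. Shared 31-base stretches and exon overlaps were counted in GENCODE M21 (GRCm38), and upstream windows came from a RefSeq table on GRCm38.p6. No gene coordinates of the authors' build are printed. Alternatives covered pseudocount, filter, scaling, variance model, replicate block, minimum fold change and single libraries left out.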

Additional observations from a re-analysis of the deposited data

How the results depend on the processing

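Libraries of the same replicate number showed no positive correlation of their deviations from the group mean (-0.08 to -0.02). Whether they were handled in pairs is not given in the sources used here. With the replicate block 6 family and 5 pathway genes were called, as without it. In place of 6 family calls of 26 genes tested, there were 3 of 18 with a mean of at least 5 TPM. There were 13 of 26 with no minimum fold change and 1 with a minimum of 1. Over all genes 1987 of 12510 were called in the main fit. At a mean of at least 5 TPM 1477 of 9841 were, and with no minimum 5959 of 12510. Leaving out single libraries gave 4 to 7 family calls, and 1900 to 1975 over all genes. The 5 pathway calls became 2 under quantile normalization, 26 with no minimum and 0 with a minimum of 1 (26 genes had an adjusted limma p under 0.05 there), and 4 to 6 without single libraries. Signs changed only for genes that were not called. Under median centring the log2 fold changes were 0.0876 for Plxna1, 0.0052 for Plxnd1, 0.0245 for Evl and 0.0528 for Vasp, and under quantile normalization 0.0536 for Plxna1, 0.0395 for Plxna2, 0.0814 for Plxnd1 and 0.0081 for Mical3. Without single libraries Plxna1 ranged from -0.0644 to 0.0877, Plxna3 from -0.0447 to 0.15 and Plxnd1 from -0.38 to 0.0649. The log2 ratio of summed A-type plexin TPM was 0.0948 with libraries scaled to one median and -0.0573 to 0.0853 without single libraries. With that scaling the ratio was -0.14 for the plexin B-type sum (in place of -0.24) and -0.08 for all plexins (in place of -0.18). The cause of these moves was not tested. The alternative with a count model was not run, since the file holds no counts. TPM keeps no depth, which leaves the precision of the 14 genes below 1 TPM unknown.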

Other observations

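Without the filter on low values, 38 of the 40 members other than Sema6a could be tested among 24518 genes. The same number of 6 members was called, against 1978 of the 24518 genes. Sema3f was at a log2 fold change of -0.43 with a limma adjusted p of 0.031, and Plxnb1, the receptor of Sema4d, was at -0.58 with a limma adjusted p of 0.14. Both lie where the depth behind the values is unknown.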
